A study of Homo sapiens with 11 samples.

Results

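The COPII and COPI vesicle machinery was examined in peak lists of chromatin immunoprecipitation with sequencing (ChIP-seq) for the transcription factors MYRF and FOS and for acetylated histone H3 lysine 27 (H3K27ac), a mark of active promoters and enhancers, in human pancreatic ductal adenocarcinoma cells. The set holds 36 genes chosen by function: 15 for the COPII coat, its GTPases and its scaffolds, 9 for the COPI coat, 3 for ARF GTPases and their exchange factor, 3 KDEL receptors, and 6 SNAREs and tethers. All 36 were found in the annotation, out of 20033 protein-coding genes, and all 36 had an H3K27ac summit in both lists of the control clone, as did 16092 other genes. A peak was assigned to a gene when its summit lay within the RefSeq gene span (GRCh38.p14) or 20 kb to either side of it.

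There were 10 peak lists, 2 replicates in each of 5 groups. H3K27ac was mapped in MYRFKO cells, a single CFPAC1 clone that carried a lentiviral CRISPR plasmid with active Cas9 and a guide against MYRF, and in MYRFWT cells, a CFPAC1 control clone with the same kind of plasmid. MYRF was mapped with an antibody made by the submitters in the original, unedited CFPAC1 and HPAF2 lines, which were grown in different media (IMDM for CFPAC1, RPMI for HPAF2). FOS was mapped in the CFPAC1 control clone with an antibody from Sigma, and H3K27ac with one from Abcam. The edit and the choice of clone cannot be told apart between MYRFKO and MYRFWT cells, and the peak lists cannot check the edit itself. An HPAF2 input sample was not analysed here.

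COPII coats bud cargo vesicles from the endoplasmic reticulum (ER): the GTPase SAR1, activated by PREB, recruits the SEC23 and SEC24 inner coat and the SEC13 and SEC31 outer coat at sites organised by SEC16A and TFG, while MIA2 and MIA3 help to load bulky cargo such as collagen. COPI coats, recruited by ARF GTPases that GBF1 activates, return escaped ER proteins bound to KDEL receptors, and SNAREs such as STX5 and BET1 fuse the vesicles with their target. Secretory cells depend on this traffic, and many of its genes belong to the unfolded protein response, in which the factors XBP1 and ATF6 read the motif TGACGTGG. MYRF is made as an ER membrane protein whose amino-terminal part is cut free and acts in the nucleus as a transcription factor, best known in myelinating glia.

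The promoters that a CFPAC1 MYRF peak overlapped, in whole or in part, are shown first. RefSeq promoter sequences, 250 bases before to 50 after the start site, matched 31 of the 36 genes, and 3 of those promoters lay under a MYRF peak. They are COPA (chr1:160343201-160343500, minus strand), SEC23B (chr20:18507298-18507597, plus strand) and SEC24C (chr10:73744122-73744421, plus strand), each of 300 bases in GRCh38.p14 and written 5′ to 3′ along the gene. Capitals mark TGACGTGG in COPA and the MYRF motif CTGGCAC, read on the opposite strand, in SEC23B.
COPA: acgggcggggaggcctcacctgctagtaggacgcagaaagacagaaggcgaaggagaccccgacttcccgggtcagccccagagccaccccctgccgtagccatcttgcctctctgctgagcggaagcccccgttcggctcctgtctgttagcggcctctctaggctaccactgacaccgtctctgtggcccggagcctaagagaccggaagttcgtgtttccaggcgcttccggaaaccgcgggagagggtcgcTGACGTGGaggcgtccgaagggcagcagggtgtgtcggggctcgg
SEC23B: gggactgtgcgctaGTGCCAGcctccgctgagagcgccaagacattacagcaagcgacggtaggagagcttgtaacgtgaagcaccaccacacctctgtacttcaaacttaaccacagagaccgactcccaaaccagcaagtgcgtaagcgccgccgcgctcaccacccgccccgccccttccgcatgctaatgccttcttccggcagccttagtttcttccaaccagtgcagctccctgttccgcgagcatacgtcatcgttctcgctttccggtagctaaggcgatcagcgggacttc
SEC24C: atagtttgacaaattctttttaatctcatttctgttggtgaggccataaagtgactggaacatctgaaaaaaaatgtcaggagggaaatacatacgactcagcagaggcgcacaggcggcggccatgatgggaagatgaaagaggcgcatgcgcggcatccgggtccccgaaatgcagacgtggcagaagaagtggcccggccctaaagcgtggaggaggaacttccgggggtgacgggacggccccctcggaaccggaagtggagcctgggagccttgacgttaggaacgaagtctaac
The COPA peaks covered 249 and 255 of these bases in CFPAC1 replicates 1 and 2. The SEC23B peaks covered 34 and 174, and the SEC24C peak covered 153 in replicate 1, with no peak in replicate 2. Across all 15842 RefSeq promoters, 1.82% and 1.71% lay under a CFPAC1 MYRF peak in replicates 1 and 2. This background, used below for every share of promoters under a peak, was not limited to genes with H3K27ac in the control clone.

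TGACGTGG was present in 10 of the 31 promoters, against 0.833% of the 15842 promoters of equal length. Motifs were searched on both strands. The 10 genes spanned the roles of the set: the COPII genes SEC23A, SEC24A and SEC16A, the COPI genes COPA, COPB1 and COPB2, the ARF group members ARF1 and GBF1, the receptor KDELR3 and the SNARE STX5. COPB2 held 2 copies. The stretches below show each copy other than that of COPA with 10 bases on each side, read so that the motif runs forward, with the motif in capitals.
SEC23A: cccctcctctTGACGTGGcagaggcggc
SEC24A: tgagagtcggTGACGTGGcggcgaggcc
SEC16A: tcagtccggcTGACGTGGcaccagggcc
COPB1: agtccttggcTGACGTGGaagggggtgg
COPB2 (upstream copy): ctaagggccgTGACGTGGtgccgctgag
COPB2 (downstream copy): tcagactgacTGACGTGGaacttccggg
ARF1: ccggaggcgcTGACGTGGccgccgtcag
GBF1: gtcagctcacTGACGTGGtaactagcct
KDELR3: ggccgggcggTGACGTGGccagggcggc
STX5: tacgtgtaggTGACGTGGccgcttccag
In order, these stretches lie at chr14:39103222-39103249 (minus), chr5:134648596-134648623 (plus), chr9:136484708-136484735 (plus), chr11:14499842-14499869 (plus), chr3:139389826-139389853 (plus), chr3:139389633-139389660 (plus), chr1:228082682-228082709 (plus), chr10:102245527-102245554 (minus), chr22:38468040-38468067 (minus) and chr11:62832050-62832077 (minus). Among promoters with H3K27ac in all 4 libraries, 10 of 30 in the set held the motif, against 0.812% of 8125 others, at a median GC content of 62.5% against 65.0%. Of 50 other genes of ER-Golgi traffic, 43 had a promoter in the table and 2 of these, SEC16B and SCFD1, held it. The COPA copy ended 7 and 1 bp short of the MYRF peaks of CFPAC1 replicates 1 and 2. The other copies lay 6109 bp or more from the nearest peak of every MYRF list. The upstream COPB2 copy lay inside a FOS peak in replicate 1 and 36 bp from one in replicate 2. The SEC24A copy lay 106 bp from a FOS peak in replicate 1 and inside one in replicate 2. From FOS peaks, the downstream COPB2 copy lay 174 and 229 bp, the STX5 copy 408 and 436 bp, and the remaining copies 1363 bp or more.

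The MYRF motif CTGGCAC occurred in 2 of the 31 promoters, SEC23B and ARCN1, against 5.23% of all promoters, and CTGGTAC occurred in none, against 1.54%. At SEC23B the motif lay 246 and 106 bp outside the peaks of CFPAC1 replicates 1 and 2 and 301 bp outside that of HPAF2 replicate 2. The AP-1 motif, TGAGTCA and its reverse complement TGACTCA, occurred in none, against 3.66%. The ER stress element, CCAAT followed after 9 bases by CCACG, occurred in none of the 31, against 0.120%. A missing match says only that these letters are not in the window.

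The lists held 4743 and 4041 MYRF peaks in CFPAC1, 3702 and 4326 MYRF peaks in HPAF2, 29087 and 36349 FOS peaks, 107586 and 110498 H3K27ac peaks in MYRFKO cells and 116466 and 109352 in MYRFWT cells. The lists give no read counts, so sequencing depth is unknown. H3K27ac covered 87.9 and 92.9 Mb in MYRFKO cells and 101 and 95.2 Mb in MYRFWT cells. For marker genes, H3K27ac coverage of gene ends was taken over 2 kb on each side of both ends. Epithelial genes (EPCAM, CDH1, SOX9 and 4 keratins) had median coverage of 63.0% and 63.8% in MYRFKO cells and 71.1% and 60.2% in MYRFWT cells. Of the fibroblast markers, DCN was at 0% in all 4 libraries, and COL1A2 and PDGFRB were at 0% in all but MYRFKO replicate 2, with 5.70% and 2.50% there. COL1A1 was at 18.4% and 25.0% in MYRFKO cells and 26.6% and 25.4% in MYRFWT cells. The labels do not say that replicates were separate cultures, so their spread may be technical.

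MYRF peaks lay near some of these genes in each line. In CFPAC1, 4 of 36 genes (11.1%) had an overlapping MYRF peak in both replicates, against 12.9% of other genes: COPA, COPB2 and ARCN1 of the COPI coat and SEC23B of the COPII coat. In HPAF2, 2 of 36 did, MIA2 and STX5, against 12.4% of other genes. None did so in both lines, against 7.36%. The CFPAC1 shares were near those of other genes. With a peak in either replicate the counts were 9 of 36 (25.0%) in CFPAC1, against 23.6% of other genes, and 4 of 36 in HPAF2, against 21.5%. By role, the both-replicate CFPAC1 count was 3 of 9 for COPI and 1 of 15 for COPII, and 0 for the 3 ARF genes, the 3 KDEL receptors and the 6 SNAREs and tethers. These counts are descriptions, and the difference between lines or roles was not tested.

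**Figure D1:**
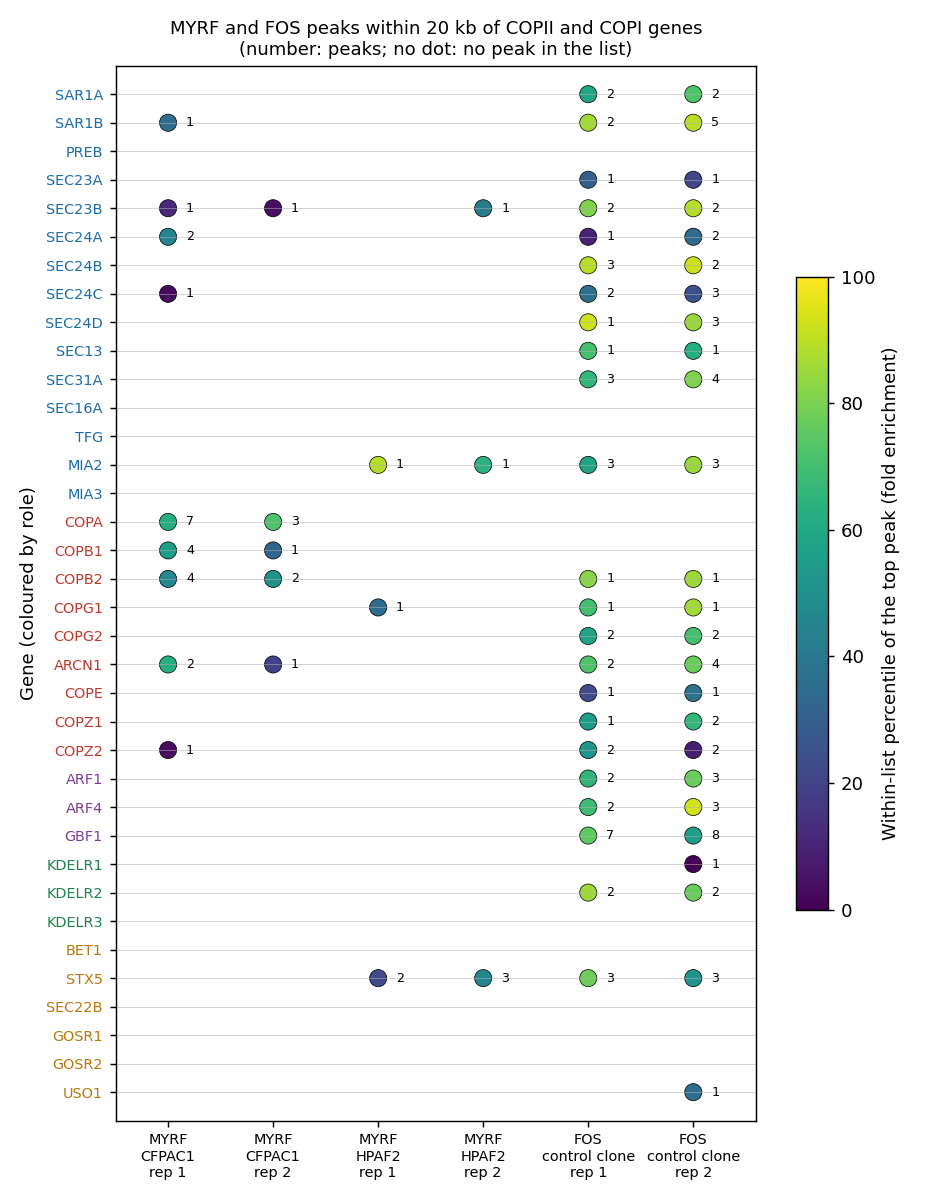
Peaks of MYRF (CFPAC1 and HPAF2) and FOS (CFPAC1 control clone) within 20 kb of each of the 36 genes, 1 column per list and 1 row per gene. Colour gives the percentile of the strongest peak's fold enrichment within its own list, the number gives the peaks, and no dot means no peak. The 7 and 3 CFPAC1 MYRF peaks at COPA and the FOS columns with 23 genes in both replicates stand beside empty MYRF rows for ARF genes and KDEL receptors.

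Most CFPAC1 MYRF peaks of the set lay in or near genes for the COPI coat, the heptameric coat built from alpha, beta, beta′, gamma, delta, epsilon and zeta subunits. COPA, the alpha subunit, held 7 and 3 peaks in replicates 1 and 2. COPB2, the beta′ subunit, held 4 and 2 peaks, COPB1, the beta subunit, 4 and 1, and ARCN1, the delta subunit, 2 and 1. Per megabase of window the COPI genes held 23.1 and 8.99 MYRF peaks in the CFPAC1 replicates, against 2.93 and 2.46 for other genes. The whole set held 6.98 and 2.43, the COPII genes 3.33 and 0.665, and the other roles none. The remaining COPI genes COPG1, COPG2, COPE and COPZ1 held none, and COPZ2, a zeta subunit, held 1 in replicate 1.

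Most of these COPI peaks had no H3K27ac around them. Of 18 and 7 MYRF peaks near COPI genes in the CFPAC1 replicates, 16 and 6 had 0 bp of H3K27ac within 1 kb of the summit in all 4 H3K27ac libraries, and 15 of those 16 and 5 of those 6 lay inside the COPI gene itself. None of the 16 and 6 overlapped an HPAF2 MYRF peak or a FOS peak. Their fold enrichment ran from 3.51 to 5.69 in replicate 1 and from 3.85 to 5.36 in replicate 2, at percentiles of 7.59 to 61.8 and 12.1 to 50.2 within their lists. In each replicate, 3 of them overlapped a peak of the other replicate.

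At COPA, the site outside acetylated chromatin that both replicates shared was at chr1:160304795-160305003 and chr1:160304839-160305038, with summits 38445 and 38285 bp downstream of the start site and folds of 3.51 and 4.39. At COPB2 it was at chr3:139373073-139373478 and chr3:139373001-139373309, 16222 and 16528 bp downstream, with folds of 4.64 and 5.36. At ARCN1 it was at chr11:118584410-118584800 and chr11:118584460-118584679, 12096 and 12079 bp downstream, with folds of 5.69 and 4.17. No pair of COPB1 peaks overlapped between replicates: 3 of the 4 replicate 1 peaks lay inside COPB1, while the other, like the replicate 2 peak, lay upstream of it within the span of PSMA1, a proteasome subunit gene. Exon and intron positions were not assigned, since gene spans alone were used.

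**Figure D2:**
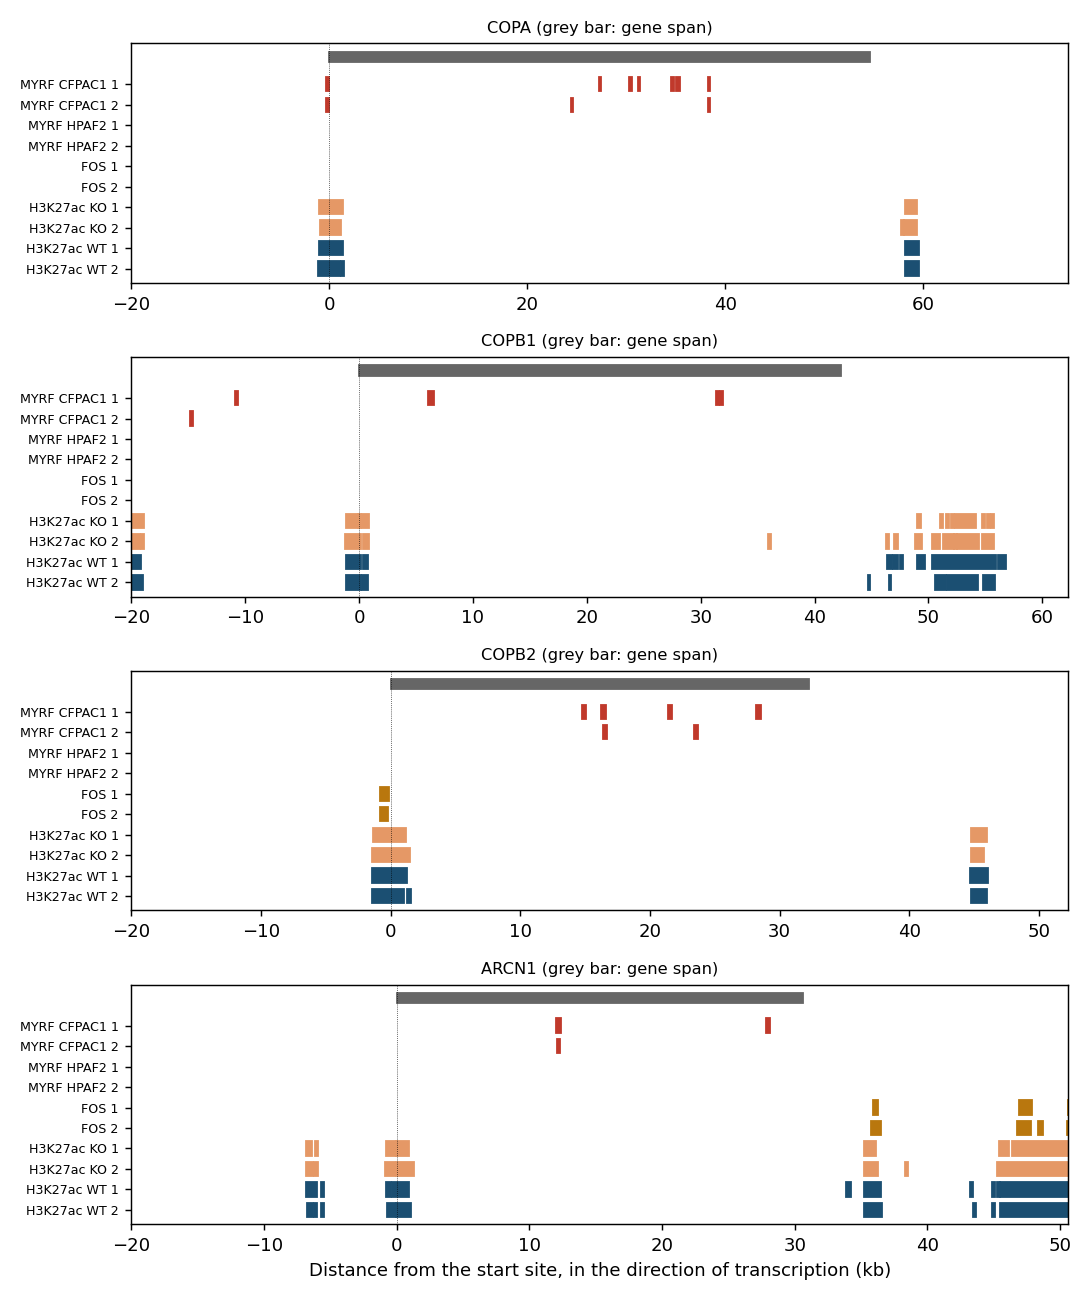
Peaks of all 10 lists along COPA, COPB1, COPB2 and ARCN1, by distance from the start site in kb in the direction of transcription, 1 row per list, with the gene span as a grey bar and peaks under 0.25 kb drawn at that width. CFPAC1 MYRF peaks sit in the gene bodies between H3K27ac peaks, and at COPA 1 peak per replicate sits at the acetylated start site.

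Counted over the set, 19 of 23 MYRF peaks in CFPAC1 replicate 1 and 6 of 8 in replicate 2 lacked H3K27ac, against 25.4% and 21.1% of the whole lists. Besides the COPI genes, SEC24A, a cargo-binding COPII subunit, held 2 such peaks and SAR1B, a SAR1 GTPase, held 1, all in replicate 1. In HPAF2 the counts were 0 of 4 and 0 of 5, against 15.2% and 16.7% of the lists, with H3K27ac measured in CFPAC1 clones and not in HPAF2. For FOS they were 5 of 46 and 7 of 60, against 13.1% and 16.3%. In the whole CFPAC1 lists, 27.9% and 37.9% of MYRF peaks without H3K27ac overlapped a peak of the other replicate, against 70.5% and 78.4% of those with it. A MYRF peak without H3K27ac inside the gene was found for 6 of 36 genes in CFPAC1 replicate 1 and 3 of 36 in replicate 2, against 2.70% and 2.09% of other genes. What gave rise to these peaks was not tested.

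**Figure D3:**
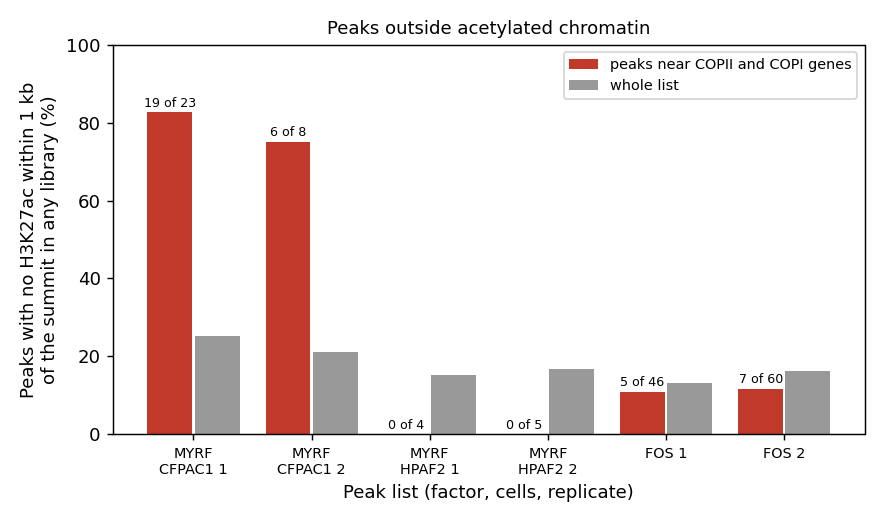
Share of peaks with no H3K27ac within 1 kb of the summit in any of the 4 H3K27ac libraries, for peaks near the 36 genes (red, counts printed) and for the whole list (grey), by list. The red bars stand at 19 of 23 and 6 of 8 for MYRF in CFPAC1 and at or below the grey bars in the other lists.

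The start-site peaks formed a smaller group. COPA had one at chr1:160343252-160343641 and chr1:160343246-160343586 in the CFPAC1 replicates, with folds of 5.26 and 6.63 at percentiles 51.9 and 71.7, summits 264 and 202 bp upstream, and 1663 to 1972 bp of H3K27ac in the 2 kb around them. The peak also lies within the span of NCSTN, a gamma-secretase subunit gene, so which gene it belongs to cannot be told apart. SEC23B, an inner coat subunit, had a peak at chr20:18507564-18507855 and chr20:18507424-18507909 in CFPAC1, with folds of 3.68 and 3.26 at percentiles 11.1 and 3.56. HPAF2 replicate 2 had a peak at the same place, chr20:18507619-18507819, with a fold of 4.96 at percentile 41.3, and HPAF2 replicate 1 had none. SEC23B was thus the gene of the set with a MYRF peak in some replicate of each line, and both FOS lists had a peak there too.

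The start-site peak of SEC24C, an inner coat subunit, was called in CFPAC1 replicate 1 alone. So was the COPZ2 peak, which lay 243 bp inside the outer end of the gene span and outside the RefSeq promoter window. Their folds were 3.16 and 3.18, at percentiles 3.04 and 3.37 of the list, and the COPZ2 peak lay 549 bp from the span of NFE2L1. Both are among the weakest peaks of that list.

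In HPAF2 the strongest MYRF peak of the set lay near MIA2, a cargo-loading protein of ER exit sites. It was at chr14:39218214-39218730 and chr14:39218206-39218691, with folds of 10.9 and 6.32 at percentiles 88.9 and 64.2, and lay 15360 and 15412 bp outside the gene span. It overlapped a FOS peak of the CFPAC1 control clone and had H3K27ac over 1982 to 2000 of 2000 bp in MYRFKO cells and 1998 to 2000 in MYRFWT cells, although neither CFPAC1 MYRF list had a peak. STX5, the SNARE of the early Golgi, had an HPAF2 site with its summit in TMEM179B in replicate 1 and in TMEM223 in replicate 2, with folds of 4.21 and 4.93, and a site at WDR74, with folds up to 5.23. Those peaks lay 19363 and 19474 bp, and 9438 to 9857 bp, from the STX5 span. COPG1, a gamma subunit, had a peak in HPAF2 replicate 1, 18059 bp upstream of its start site, with a fold of 4.64.

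FOS peaks lay near most of these genes, as they did near most other genes. Both FOS replicates had an overlapping peak for 23 of 36 genes, against 61.6% of other genes, and either replicate for 25 of 36, against 73%. By role the both-replicate counts were 11 of 15 for COPII, 7 of 9 for COPI, 3 of 3 for the ARF group, 1 of 3 for KDEL receptors and 1 of 6 for SNAREs and tethers. COPA, COPB1, PREB, SEC16A, TFG, MIA3, KDELR3, BET1, SEC22B, GOSR1 and GOSR2 had no FOS peak in either list.

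Among COPII genes, SEC24B, SAR1B, SEC24D and SEC23B had the highest FOS peaks by the lower of their percentiles in both replicates. SEC24B, a cargo-binding subunit, had a peak inside the gene, 38726 and 38727 bp from the start site, with folds of 10.3 and 12.4 at percentiles 89.4 and 92.6 in FOS replicates 1 and 2. SAR1B had its highest peak 9672 and 9608 bp past the gene end, with folds of 9.30 and 10.8, and SEC24D had one 6188 and 6112 bp outside its span, with folds of 11.6 and 9.37. At SEC23B the highest FOS peak lay 34391 and 34422 bp inside the gene, with folds of 8.23 and 10.7, and had no H3K27ac within 1 kb, while a second FOS peak overlapped the MYRF peak at the start site. The highest FOS peaks of these 4 genes thus lay away from their start sites.

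COPB2 had a FOS peak 616 and 610 bp upstream of the start site and reaching into the promoter window, with folds of 8.52 and 9.62 at percentiles 82.1 and 85.5. No MYRF peak of either line lay there. FOS peaks covered part of the promoters of SEC23B, SEC31A, COPB2 and COPE in both replicates and of SEC24A in replicate 2, which is 4 and 5 of 31 promoters against 5.61% and 7.27% of all. The highest FOS peaks of ARCN1, with folds of 7.09 and 7.91 at different places, lay within PHLDB1, and that of KDELR2, with folds of 9.13 and 7.92, lay within DAGLB. COPG1 had its FOS peak 18670 and 18622 bp upstream, with folds of 6.84 and 9.80, and the HPAF2 MYRF peak overlapped it. Among the highest FOS peaks named here, those of ARCN1 and KDELR2 thus lay inside neighbouring genes.

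Nearly all promoter windows that could be examined carried H3K27ac. Of the 31 promoters, 30 lay under an H3K27ac peak in each of the 4 libraries, against 58.4% and 55.4% of all promoters in MYRFKO cells and 56.9% and 57.4% in MYRFWT cells. COPZ2 was the exception, but its RefSeq promoter window lies 10256 bp inside the gene span, and the 4 kb around the outer end of the span held 3303 and 3828 bp of H3K27ac in MYRFKO cells and 3268 and 3265 bp in MYRFWT cells. The windows of MIA3, GBF1 and KDELR1 also lie inside their spans, by 26232, 14889 and 5861 bp. The shares of all promoters include genes without H3K27ac in the control clone, whereas every gene of the set had an H3K27ac summit there. Within-list ranks of the strongest H3K27ac peak were computed for the 36 genes and not for other genes. The strongest H3K27ac peak of a gene stood at median percentiles of 94.7 and 93.0 in MYRFKO cells and 92.2 and 90.9 in MYRFWT cells. That of ARF1, a GTPase that recruits COPI, was at percentiles 99.7 and 99.1 in MYRFKO cells and 95.0 and 99.2 in MYRFWT cells. That of KDELR1 was at 99.6 and 99.3 in MYRFKO cells and 98.8 and 98.5 in MYRFWT cells.

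**Figure D4:**
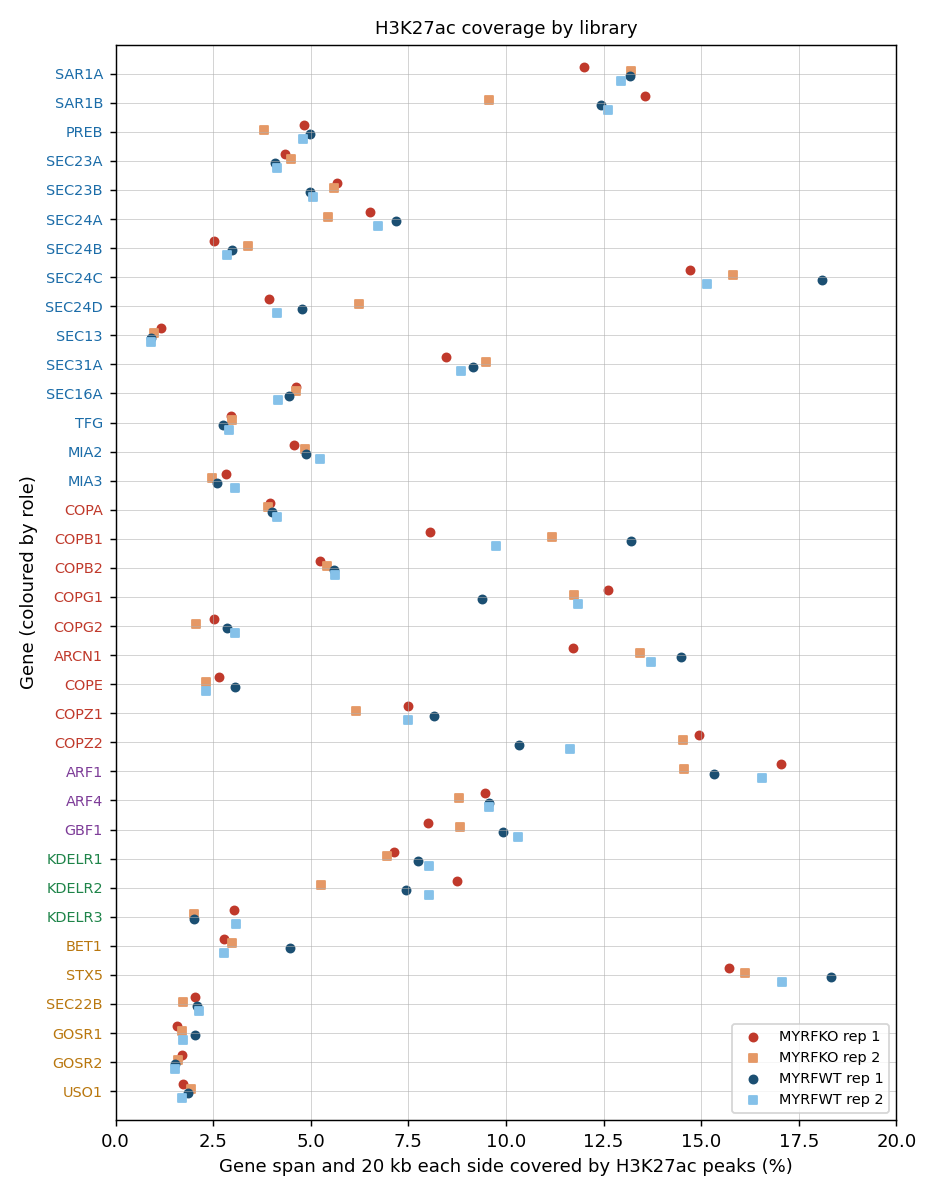
H3K27ac coverage of each gene's span and 20 kb to either side, in percent, with 1 point per library (MYRFKO in reds above MYRFWT in blues). Values run from 0.919% to 18.3%. COPZ2 has both MYRFKO points to the right of both MYRFWT points.

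H3K27ac coverage of these genes was compared between clones to ask whether their acetylation differed in the cells edited at MYRF. No gene passed. In limma's moderated test on log2 covered base pairs over 16128 genes, with Benjamini-Hochberg adjustment, 0 of 36 genes and 0% of all genes were called at an adjusted p of 0.05. At an unadjusted p under 0.05 there were 875 genes, 531 lower and 344 higher in MYRFKO cells, of which 1 was in the set. The median MYRFKO minus MYRFWT difference was -0.01 over the 36 genes and 0.01 over all genes, and 20 of the 36 were below 0 and 16 above. The adjusted p-values of the 36 ran from 0.818 to 0.997. A p that misses the threshold does not show that the clones are alike, and with 2 libraries against 2 an exact two-sided permutation test cannot go below 0.333.

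COPZ2, a tissue-restricted zeta subunit of COPI, had the largest difference. H3K27ac covered 9248 and 9001 bp of its window in MYRFKO cells and 6394 and 7205 bp in MYRFWT cells, with no overlap between clones. The difference was 0.43 on the log2 scale (SE 0.11, limma, unadjusted p = 0.0135, adjusted p = 0.818). In its window 2 regions were in both MYRFKO lists and neither MYRFWT list. The region chr17:48045865-48046167, at percentiles 8.06 and 18.3 of the MYRFKO lists, lay inside the COPZ2 span. The stronger region, chr17:48056015-48056801, at percentiles 84.2 and 52.4, lay outside that span, upstream of COPZ2 and on the side of NFE2L1. Which gene the stronger region belongs to cannot be told apart.

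Among COPI genes the other large differences went in both directions. COPG1 had 8598 and 8011 bp in MYRFKO cells and 6403 and 8075 bp in MYRFWT cells, a log2 difference of 0.24 (SE 0.14), and COPG2, its paralog, had 5113 and 4176 bp in MYRFKO cells and 5800 and 6196 bp in MYRFWT cells, a log2 difference of -0.26 (SE 0.13). COPB1 had 6636 and 9195 bp in MYRFKO cells and 10872 and 8020 bp in MYRFWT cells, a difference of -0.18 (SE 0.21). COPZ1 differed by -0.11 (SE 0.12). The base pairs of the clones overlapped for COPG1 and COPB1, though those of COPG1 no longer did once the libraries were centred. At the 4 COPI genes with CFPAC1 MYRF peaks outside acetylated chromatin, the differences were 0.02 for COPA (SE 0.10), -0.01 for COPB2 (SE 0.10), -0.10 for ARCN1 (SE 0.11) and -0.18 for COPB1.

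Of the 15 COPII genes, centred values were lower in both MYRFKO libraries for 0, against 16.1% of all genes, and higher for 5, against 18.1%. Without centring, the count of lower genes over the whole set was 13 in place of 4. SEC23B, with the acetylated MYRF peak at its start site, had 5319 and 5262 bp in MYRFKO cells and 4667 and 4753 bp in MYRFWT cells, a log2 difference of 0.19 (SE 0.10). SEC24D differed by 0.20 (SE 0.22), with 6031 and 9573 bp in MYRFKO cells and 7333 and 6334 bp in MYRFWT cells, which overlap. SEC23A and SEC13 each differed by 0.14, with SEs of 0.10 and 0.15, and SEC24A by -0.14 (SE 0.12). SEC13, an outer coat subunit, had the least coverage of the set, 701 and 595 bp in MYRFKO cells and 553 and 553 bp in MYRFWT cells.

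Among the other roles, GBF1, the exchange factor for ARF GTPases, had 15375 and 16954 bp in MYRFKO cells and 19097 and 19842 bp in MYRFWT cells, without overlap, a log2 difference of -0.20 (SE 0.11). The SNARE BET1 had 2268 and 2435 bp in MYRFKO cells and 3646 and 2273 bp in MYRFWT cells, with overlap, a difference of -0.16 (SE 0.19). STX5 had 10241 and 10519 bp in MYRFKO cells and 11953 and 11124 bp in MYRFWT cells, a difference of -0.09 (SE 0.10). The 3 KDEL receptors ran from -0.09 to 0.05.

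**Figure D5:**
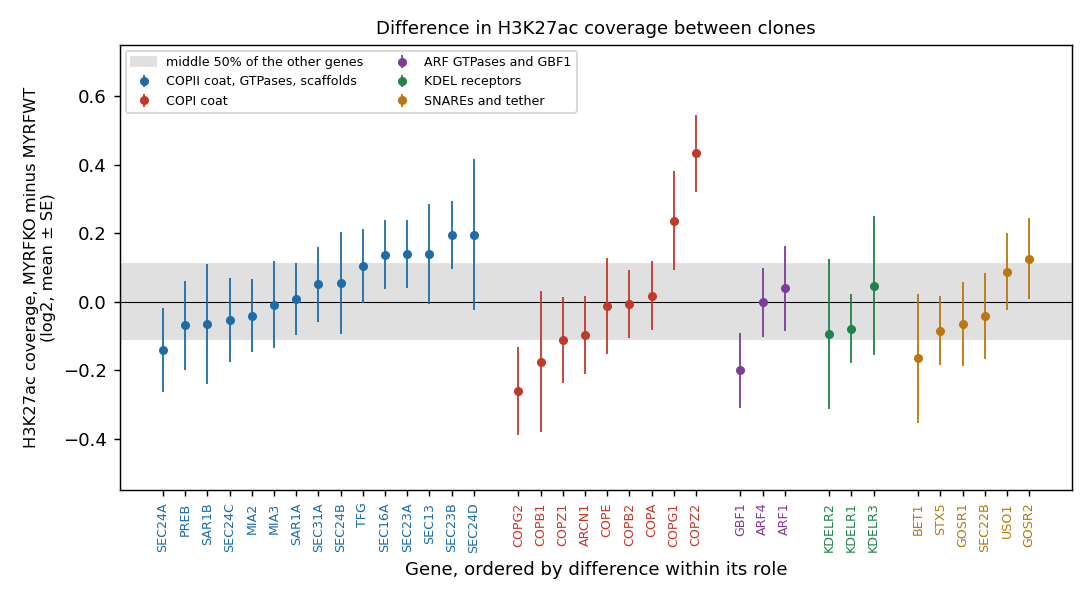
MYRFKO minus MYRFWT difference in log2 H3K27ac coverage for each of the 36 genes (point and SE, 2 libraries per clone), ordered within role, with a grey band for the middle range of the other genes between their quartiles. Points run from -0.26 (COPG2) to 0.43 (COPZ2), and none passed limma's adjusted threshold.

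On the centred scale, the clones' values did not overlap for 12 of the 36 genes. Both MYRFKO values were lower for 4 genes (COPG2, GBF1, KDELR1 and STX5), against 16.1% of all genes, and higher for 8 (COPG1, COPZ2, GOSR2, SEC13, SEC16A, SEC23A, SEC23B and TFG), against 18.1%. Without centring the libraries at their medians the split was 13 lower and 7 higher, against 25.9% and 10.5% of all genes. Among 256 merged H3K27ac regions in these windows, counted gene by gene, 9 were in both MYRFWT lists and neither MYRFKO list, which is 3.52% against 3.04% for other genes. Another 6 were in both MYRFKO lists and neither MYRFWT list, 2.34% against 1.62%. Of the 9, GBF1 and ARCN1 held 2 each, and 1 was counted for both SAR1B and SEC24A, whose windows share 24447 bp. All 4 libraries held 138 of the 256 regions, 53.9% against 47.5% for other genes.

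Other genes of ER-Golgi traffic were counted in the same way. Of 50 such genes, 3 (BNIP1, ERGIC1 and YIF1B) had a MYRF peak in both CFPAC1 replicates, against 12.9% of genes outside the set. In both HPAF2 replicates 2 did (ERGIC1 and YIF1B), against 12.4%. FOS peaks in both replicates were found for 31 of the 50, against 61.6%. Both MYRFKO values of H3K27ac coverage lay below both MYRFWT values for 6, against 16.1% of all genes. They lay above them for 10, against 18.1%. The median difference of the 50 was -0.01.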

How the data were processed

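ChIP-seq peak lists of MYRF, FOS and H3K27ac were used, 2 replicates in each of 5 groups. The tools named, per the submitters' processing notes, are MACS2 (version 2.1.0.20150731), Bowtie2 (2.2.6), Trimmomatic (0.38) and SAMtools, and the build is GRCh38 (hg38). The role of each tool and the control used to call CFPAC1 peaks are not given in the sources used here. Each deposited peak carries the authors' fold enrichment (a ratio over background), a -log10 p, a -log10 q and a score made from the q value. The lists hold no counts, so depth is unknown, and folds were used only to describe and rank peaks within a list.

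Genes were RefSeq GRCh38.p14 spans with 20 kb on each side. Peaks of a replicate pair were taken as shared from an overlap of 1 bp. H3K27ac coverage is the base pairs of a window under peaks, taken as log2(bp + 1000), which understates changes of small values, and centred at each library's median over the 16128 genes with a summit in both MYRFWT lists. limma 3.58.1 (R 4.3.3, eBayes with trend) was fitted over those genes without a block. The same fit was also run on simulated data, with an outcome that is not reported here. Same-numbered replicates of both clones did not deviate together. The differences between replicates 1 and 2 were weakly and inversely related between the clones (r = -0.20 over 16128 genes). Promoter sequences and strand came from RefSeq (GRCh38.p14) and were found for 31 of 36 genes; no strand was used for MIA2, ARF4, USO1, SEC24D and KDELR2. Wider peaks and wider windows give more matches: the median window was 76.0 kb for the set and 68.4 kb for other genes.

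Named genes were those with a MYRF peak in any list, the 8 with the highest FOS percentile in both replicates, and the 6 highest and 6 lowest H3K27ac differences. Members, lists and motifs were chosen with earlier results of these data known. Alternatives changed the window, the peaks kept, the overlap, centring, pseudocount, gene filter, replicate block and replicates used. Markers of other cell types checked were blood (medians of 7.50% and 3.92% of gene ends in MYRFKO cells, 5.74% and 5.13% in MYRFWT cells) and endothelial genes (1.26% and 1.13%, against 1.20% and 0%). One epithelial marker of the list is not reported here and was left out of its median.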

Additional observations from a re-analysis of the deposited data

How the results depend on the processing

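MYRF counts depended on peak strength and window. In CFPAC1 the count of 4 became 0 with peaks of -log10 q of at least 10 (5.57% of other genes), 9 with a peak in either replicate (23.6%), 5 to 9 with 1 replicate left out (18.0% to 19.8%, the 9 without replicate 2), and 2 (COPA and SEC23B) with acetylated peaks alone (12.0%), the last chosen after seeing the data. In HPAF2 the count of 2 became 0 at 5 kb (8.50%), 4 at 50 kb (19.8%), 1 with strict peaks (5.91%), 4 with a peak in either replicate (21.5%), and 3 with either replicate left out (18.4% and 16.2%). The count for both lines, 0, became 2 at 50 kb (COPB2 and SEC23B, against 12.1%), 1 with a peak in either replicate (SEC23B, against 12.9%), and 0 to 1 with 1 replicate left out (8.17% to 8.73%), where leaving out HPAF2 replicate 1 gave the 1. The FOS count of 23 stayed within 1.5 times in its 8 alternatives.

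Genes with lower coverage in MYRFKO cells, 4, became 2 at 5 kb (16.8% of all genes), 13 without centring (25.9%) and 9 to 13 with 1 library left out (29.0% to 33.8%). Those with higher coverage, 8, became 5 at 50 kb (17.9%) and 16 with 2 kb on each side of both gene ends (31.7%). They became 11 to 14 with 1 library left out (30.9% to 38.2%). The shares in brackets moved with the settings too. Leaving out a library leaves 1 value against 2, so fewer orders are possible. limma called 0 genes in all 15 alternatives, and the median of the set stayed between -0.06 and 0.05. With the replicate block it was -0.01, with 0 calls and 677 genes at an unadjusted p under 0.05. With crossed replicate numbers as a block, chosen after seeing the data, there were 0 calls and 1243 such genes. Over those 15 alternatives the COPZ2 difference stayed between 0.24 and 0.52 and its adjusted p between 0.528 and 1.00. Peak lists without counts limit every comparison to presence and covered length.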

Other observations

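MYRF peaks inside genes and without H3K27ac, the kind found in the COPI genes, were most numerous elsewhere. These genes were chosen after their values were seen. DYNC1H1, the cytoplasmic dynein heavy chain that carries Golgi-bound vesicles along microtubules, held 37 and 30 in CFPAC1 replicates 1 and 2, and 2 and 6 in HPAF2. TPR, a nuclear pore protein, held 27 and 24 in CFPAC1 and 0 and 2 in HPAF2, and UBR4 held 25 and 16 in CFPAC1 and 0 and 0 in HPAF2. Ranked by the CFPAC1 replicate 1 count, COPA stood at 32, COPB2 at 56, COPB1 at 77 and ARCN1 at 107 of all genes. At least 4 such peaks in replicate 1 were found for 2 of the 36 vesicle genes, against 0.460% of other genes. In replicate 2 they were found for 0 of the 36, against 0.323%. In the whole lists these peaks had median folds of 4.51 and 4.63 in CFPAC1, against 5.54 and 5.61 for peaks with H3K27ac. In HPAF2 the medians were 5.37 and 5.30, against 5.32 and 5.35. Their cause was not tested.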
